A study of Mus musculus with 6 samples.

Results

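This account covers 45 genes of DNA replication and the cell cycle in LLC cells, the Lewis lung carcinoma line of the mouse, after targeting of Calr, the gene of the ER chaperone calreticulin. The genes were taken from the deposited table by symbol, keeping those that averaged 10 normalised counts or more, and all 45 passed, among 13199 genes that did so and 55291 gene symbols in all. They comprise 27 replication genes, Pclaf included, 6 regulators of S-phase entry and 12 mitotic genes. RNA was sequenced from 3 Calr KO and 3 control libraries, and values are gene counts that the authors normalised with DESeq2. Calr KO cells had been transduced, transiently, with plasmids for Cas9 and a guide against Calr, and control cells, whose genotype label is WT, with plasmids for Cas9 and a control guide. Both were then kept for 10 days in culture, seeded in 6-well plates and lysed after 48 hours, without further treatment and all labelled as batch 1. Each group is described as seeded in 3 wells with no clone named, so that p-values measure the spread between wells and not between independent knockouts.

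DNA replication starts when the MCM helicase, loaded by CDC6 and CDT1, is activated by CDC45 and the GINS complex. The sliding clamp PCNA, which clamp loaders place on DNA, then holds the polymerases, the flap nuclease and the ligase, and PCLAF is a small protein that binds PCNA. Genes of S phase are known as targets of E2F factors, whereas genes of mitosis are controlled largely through a CHR element (cell cycle genes homology region) together with CCAAT boxes bound by NF-Y. Cultured tumour lines that divide express both sets.

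Pclaf was the single member that changed past the threshold, and it was higher in Calr KO cells. The replication genes around it, from the helicase to the ligase, and the mitotic genes gave no call in either direction. With 0.28% of all tested genes called, 0 calls in a short list say little about that list. The series title names the ER stress response as the study's subject, and the comparison here asks how RNA of the proliferation programme differed after Calr was targeted.

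The 6 libraries summed to between 14040692 and 14099985 normalised counts, and log2 values correlated across genes at 0.985 to 0.986 within groups and 0.984 to 0.986 between groups. Calr itself had 4467, 4216 and 4453 normalised counts in the Calr KO libraries, against 10711, 10202 and 11047 in the control libraries (log2 change -1.28, SE 0.039, limma adjusted p = 7.9e-07). All p-values of single genes come from limma on log2(normalised count + 1), are two-sided, and were adjusted by Benjamini and Hochberg's method across the 13199 genes. The Calr groups did not overlap, though Calr RNA was still present in the Calr KO libraries. Edited alleles and protein were not analysed here. Markers of lung epithelium were nearly absent, with Nkx2-1, Sftpc, Scgb1a1 and Epcam at 0 in all 6 libraries. Their 5-gene sum was 0 in every Calr KO library and up to 2.89 in control libraries. Krt8 averaged 4770 normalised counts in Calr KO libraries and 4472 in control libraries, and Vim averaged 36379 in Calr KO libraries and 39343 in control libraries. Lymphocyte markers summed to 0.935 to 4.09 normalised counts in Calr KO libraries and 0 to 0.967 in controls, with 3 of 5 (Cd3e, Ms4a1 and Nkg7) at 0 throughout. Macrophage markers, with Adgre1 of the 5 at 0 throughout, summed to 65.1 to 113 in Calr KO libraries and 75.5 to 97.1 in controls. Endothelial markers, with Emcn of the 5 at 0 throughout, summed to 46.1 to 60.3 in Calr KO libraries and 37.3 to 45.2 in controls, without overlap. Cdh5 had 6.80, 5.91 and 37.4 normalised counts in Calr KO libraries, against 3.59, 2.98 and 4.17 in controls (log2 change 1.48, SE 0.67, limma adjusted p = 0.574). Kdr averaged 25.7 in Calr KO libraries and 32.0 in controls, with overlap. Fibroblast markers, none of the 5 at 0 throughout and most of the sum from Pdgfra, gave 1929 to 2249 in Calr KO libraries and 1780 to 2246 in controls. Within this list, Dcn averaged 31.9 ± 3.49 in Calr KO libraries and 15.5 ± 3.03 in controls (SD, n = 3 each), without overlap (log2 change 1.01, SE 0.28, limma adjusted p = 0.312). Col1a2 averaged 42.7 normalised counts in Calr KO libraries and 53.0 in controls, also without overlap (limma adjusted p = 0.715). The part of these cell types in the results was not tested.

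The promoter windows of 3 members are shown as examples of the motif counts that follow: Pclaf as the gene that changed, Pcna as the gene of its binding partner, and Cdk1 as a mitotic gene. The windows run from 250 bases before to 50 bases after the RefSeq start, on GRCm38.p6, at chr9:65890073-65890372, plus strand for Pclaf, chr2:132253131-132253430, minus strand for Pcna and chr10:69352863-69353162, minus strand for Cdk1. Capitals mark matches on either strand, and each sequence is written in the direction of the gene. An E2F match was any of 4 words: TTCCCGC counted as the first, TTCGCGC as the next, TTGCCGC as the third and TTGGCGC as the last. A CHR match was TTTGAA in its usual form, TTCGAA as a variant or TTTAAA as another. A CCAAT box was CCAAT alone, and a reversed box can share bases with the last E2F word.
Pclaf: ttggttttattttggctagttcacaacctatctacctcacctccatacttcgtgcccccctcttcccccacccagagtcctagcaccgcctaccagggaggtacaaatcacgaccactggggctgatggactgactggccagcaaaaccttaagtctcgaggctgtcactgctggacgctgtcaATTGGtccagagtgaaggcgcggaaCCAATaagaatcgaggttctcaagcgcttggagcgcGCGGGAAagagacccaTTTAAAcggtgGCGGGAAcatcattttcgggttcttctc
Pcna: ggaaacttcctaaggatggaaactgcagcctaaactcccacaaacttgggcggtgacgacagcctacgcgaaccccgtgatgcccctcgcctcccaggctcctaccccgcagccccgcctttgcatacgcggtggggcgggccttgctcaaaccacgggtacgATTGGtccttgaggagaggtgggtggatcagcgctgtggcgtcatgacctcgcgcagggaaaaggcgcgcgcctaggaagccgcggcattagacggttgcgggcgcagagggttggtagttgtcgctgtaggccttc
Cdk1: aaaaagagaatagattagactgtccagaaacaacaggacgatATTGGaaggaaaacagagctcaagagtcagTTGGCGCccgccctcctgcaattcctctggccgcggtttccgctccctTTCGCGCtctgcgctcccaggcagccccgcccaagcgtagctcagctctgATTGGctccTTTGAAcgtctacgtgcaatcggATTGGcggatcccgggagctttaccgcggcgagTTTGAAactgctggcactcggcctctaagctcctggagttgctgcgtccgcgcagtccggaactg
The Pclaf window held 2 E2F matches, 1 CHR match between them and 2 CCAAT boxes. The Pcna window held 1 CCAAT box and no match to these E2F or CHR letters. The Cdk1 window held 2 E2F matches, 2 CHR matches and 3 CCAAT boxes.

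RefSeq windows were found for 35 of the 45 genes, 40 windows in all. An E2F match stood in 76.9% of the 26 replication windows, in 1 of 4 windows of S-phase entry regulators and in 3 of 10 mitotic windows, against 9.6% of all 32851 windows. A CHR match stood in 38.5% of the replication windows and in all 10 mitotic windows, against 28.8% of all windows. A CCAAT box stood in 61.5% of the replication windows and again in all 10 mitotic windows, against 37.4% of all windows. Both an E2F and a CHR match stood in 26.9% of the replication windows and in 3 of 10 mitotic windows, against 1.8% of all windows. Of the 21 replication genes with a window, 7 had both in a window: Pclaf, Mcm5, Mcm7, Gins3, Rfc3, Uhrf1 and Rrm2. These matches describe letters in a window and do not show binding.

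**Figure D1:**
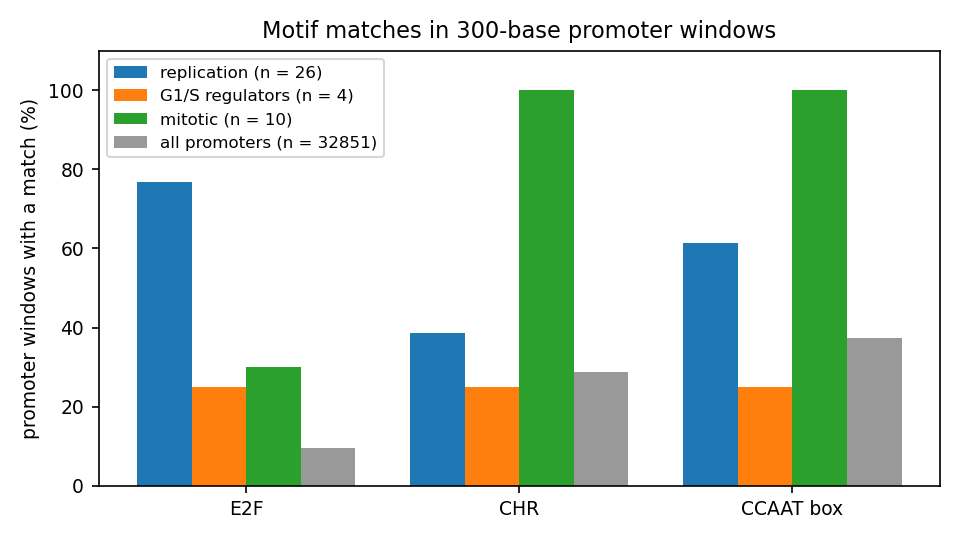
Share of promoter windows (y axis, percent) with at least 1 match to the E2F, CHR or CCAAT motif (x axis), for 26 replication, 4 S-phase entry and 10 mitotic windows beside all 32851 RefSeq windows. E2F matches were most frequent in the replication windows (76.9%), and CHR and CCAAT matches stood in every mitotic window.

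The cells held abundant transcripts of the cell cycle. Member means over the 6 libraries lay between 216 normalised counts for Gins1 and 14406 for Top2a, with a median of 1981, against a median of 392.5 over all tested genes. In 43 of the 45 genes the mean was above that median. Per kilobase of the principal GENCODE transcript in Calr KO cells, the highest levels were those of Top2a, Pcna, Cdk4 and Mcm3, at 2821, 2753, 2705 and 1893 normalised counts per kb. The same 4 genes led in control cells, with 2698, 2793, 2565 and 1969 normalised counts per kb. Pclaf stood 5th of 45 in Calr KO cells, at 1876 normalised counts per kb, and 7th in control cells, at 1498. Per kilobase of all annotated exons it stood 13th in Calr KO and 17th in control cells, since its annotated exons span 4.81 kb and its principal transcript 2.19 kb. At the low end stood Gins2, with 133 normalised counts per transcript kb in Calr KO and 128 in control cells, and Ccne1, with 162 in Calr KO and 141 in control cells.

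Pclaf (ENSMUSG00000040204.6, protein coding, plus strand of chromosome 9, positions 65890237 to 65903266, GRCm38) had 4237, 4059.9 and 4017 normalised counts in the Calr KO libraries, against 3249.5, 3285 and 3300.3 in the control libraries. All 3 Calr KO libraries were above all 3 control libraries, and the lowest Calr KO value exceeded the highest control value by more than the range within either group. The means were 4105 ± 116 in Calr KO libraries and 3278 ± 26.1 in controls (SD, n = 3 each), a 1.25-fold difference (log2 change 0.32, SE 0.036, limma adjusted p = 0.00535, 95% interval 0.24 to 0.40). Pclaf stood 17th by p-value among the 13199 genes, and 13th among those higher in Calr KO cells. In bulk RNA, a larger share of cells in a phase of the cycle and more RNA per cell cannot be told apart. No exon of another gene overlapped those of Pclaf. Its near-identical pseudogene Gm15428 averaged 3.23 normalised counts in Calr KO libraries and 1.02 in controls, and Gm10087 was listed at 0. With 1 variance prior for low and high genes in place of one that follows the mean, the change was the same and its adjusted p was 0.281.

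**Figure D2:**
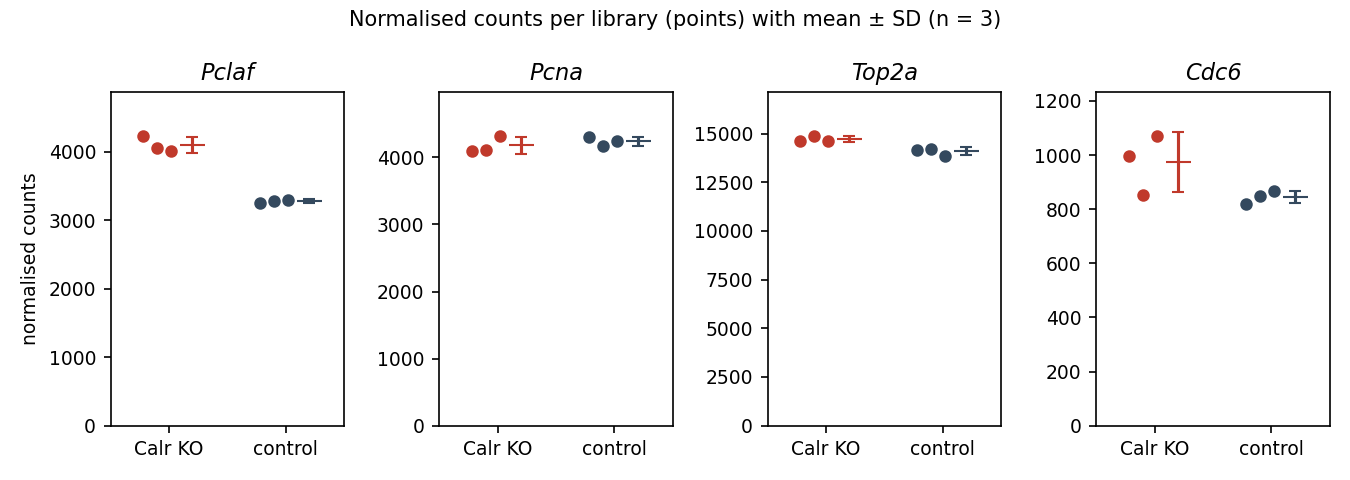
Normalised counts (y axis, from 0) in each library (points) with mean ± SD (bars, n = 3) for Pclaf, Pcna, Top2a and Cdc6, Calr KO left of control. The Pclaf groups are apart, with 4017 to 4237 in Calr KO and 3249 to 3300 in control libraries, while those of Pcna overlap.

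Of the 45 genes, 1 was higher past an adjusted p of 0.05 and 0 were lower, beside 0.197% higher, 0.0833% lower and 0.28% in either direction among all tested genes. Without the adjustment, 5 of 45 (11.1%) were higher and 0 lower at p under 0.05, beside 4.6% higher, 4.28% lower and 8.88% in either direction among tested genes. The 5 were Pclaf, Cdc6, Top2a, Cdk1 and Cdc20. The groups did not overlap in 8 genes that were higher, 17.8% of the members, and in 1 that was lower, 2.22%. Higher without overlap were 14.8% of the replication genes, 0% of the S-phase entry regulators and 33.3% of the 12 mitotic genes. Lower without overlap were 3.7%, 0% and 0%. Without Pclaf the replication share that was higher was 11.5%. At an unadjusted p under 0.05, 7.41%, 0% and 25% of these groups were higher. Among all tested genes 7.57% were higher without overlap, 7.28% lower and 14.8% in either direction, but the members were also more abundant than most tested genes, and the part of abundance in these shares was not tested. The changes ran from -0.12 for Rfc4 to 0.32 for Pclaf, and without Pclaf to 0.20 for Pole. The change was above 0 in 32 of the 45 (71.1%), beside 50.1% of all tested genes. Without Pclaf, 0 of the other 44 passed, and 9.09% were higher at an unadjusted p under 0.05. Of these 44, 15.9% were higher without overlap and 70.5% had a change above 0. The 45 genes were chosen with earlier results of these data known, so the shares are descriptions. The median log2 change was 0.038 over the 27 replication genes, 0.041 over the 6 S-phase entry regulators and 0.025 over the 12 mitotic genes, beside 0.00036 over all tested genes. On dropping Calr KO replicate 1, the S-phase entry median was 0.027 and the mitotic median 0.013. On dropping Calr KO replicate 2 they were 0.096 for S-phase entry and 0.039 for mitosis, and on dropping Calr KO replicate 3 the S-phase entry median was 0.015.

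**Figure D3:**
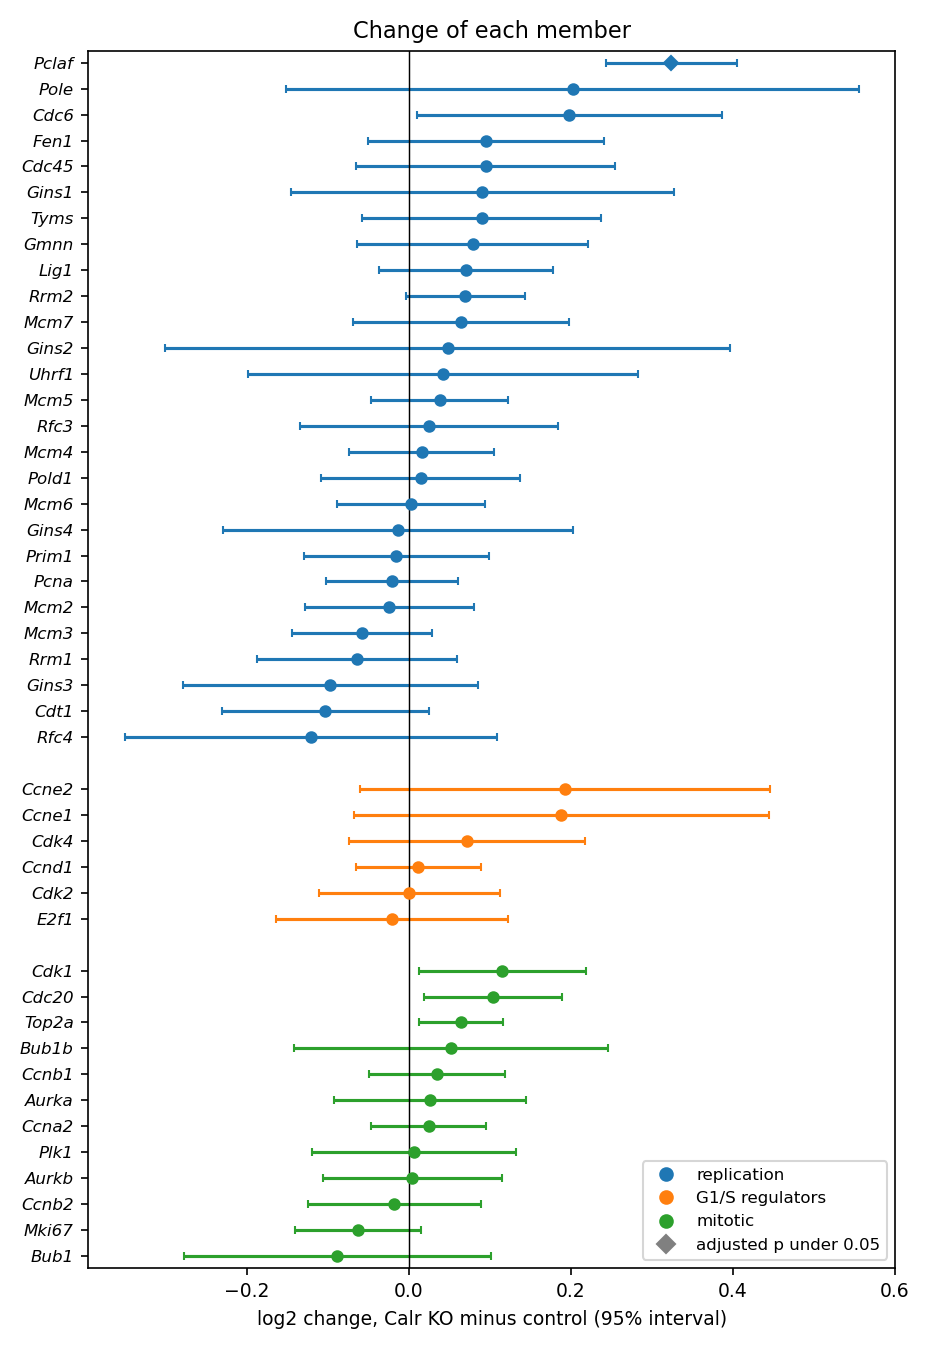
Log2 change, Calr KO minus control (x axis), of the 45 genes in rows, grouped as replication, G1/S (S-phase entry) regulators and mitotic, with limma's 95% intervals as bars. Pclaf, drawn as a diamond at 0.32, is the single gene past an adjusted p of 0.05, and the other changes lie between -0.12 and 0.20.

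The gene of the clamp that PCLAF binds gave no call. Pcna had 4097, 4114 and 4326 normalised counts in the Calr KO libraries, against 4301, 4164 and 4252 in the control libraries. The 3 control values lay within the range of the Calr KO values (log2 change -0.021, SE 0.036, limma adjusted p = 0.911, 95% interval -0.10 to 0.06). The ratio of Pclaf to Pcna was 1.03, 0.987 and 0.929 in the Calr KO libraries and 0.755, 0.789 and 0.776 in the control libraries. Its log2 value was higher by 0.34 in Calr KO cells, and its groups were apart, as those of Pclaf alone were, so the ratio is given as a description with no test. Of the clamp loader subunits, Rfc4 had 462, 389 and 369 normalised counts in the Calr KO libraries, against 473, 435 and 415 in the control libraries (log2 change -0.12, SE 0.10, limma adjusted p = 0.788). Rfc3, the other loader gene among the 45, had a log2 change of 0.024 (adjusted p = 0.954). Loader genes outside the 45 were Rfc1, Rfc2 and Rfc5, with log2 changes of 0.12, 0.16 and 0.28 (limma adjusted p = 0.545, 0.483 and 0.574). In each of them every Calr KO value was above every control value, and none passed the adjustment. Pcna-ps2, a pseudogene near-identical to Pcna, had a mean of 249 normalised counts beside 4209 for Pcna, so reads of both may have been divided between them.

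The 11 helicase genes gave 0 calls, with log2 changes between -0.097 and 0.095. Mcm2 to Mcm7, the 6 subunits of the ring, kept within -0.058 and 0.064, and for each of them the 95% interval lay between -0.20 and 0.20. Mcm3 had the smallest p among the 6, with 5991, 5594 and 5626 normalised counts in the Calr KO libraries, against 6165, 5941 and 5802 in the control libraries (log2 change -0.058, SE 0.038, limma adjusted p = 0.737). Mcm5 had 2561, 2573 and 2544 normalised counts in the Calr KO libraries, against 2527, 2498 and 2453 in the control libraries, and its groups did not overlap, yet the difference was small (log2 change 0.038, SE 0.037, limma adjusted p = 0.821). Cdc45, the activator of the helicase, had 640.4, 628 and 657 normalised counts in the Calr KO libraries, against 595, 566 and 644 in the control libraries (log2 change 0.095, SE 0.071, limma adjusted p = 0.762). The 4 Gins genes had SEs of 0.081 to 0.16, above those of the 6 ring genes, 0.037 to 0.059. Gins2 ranged from 440.1 to 644 normalised counts among the Calr KO libraries and from 418 to 571 among the control libraries, and 2758 bases of its exons overlap Gse1 on the other strand.

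Among the licensing genes Cdc6, the helicase loader, had 995, 854 and 1072 normalised counts in the Calr KO libraries, against 820.2, 848 and 867 in the control libraries. The second Calr KO library lay within the control range and the other 2 above it. The change was 0.20 with an interval above 0 (95% interval 0.0096 to 0.39), but the adjusted p was 0.541. Cdt1, its partner in loading, was lower in all 3 Calr KO libraries, with 1258, 1209 and 1196 normalised counts in the Calr KO libraries, against 1269.6, 1274 and 1395 in the control libraries (log2 change -0.10, SE 0.057, limma adjusted p = 0.657). It was the single member with every Calr KO value below every control value. Gmnn, the inhibitor of CDT1, had a log2 change of 0.079 (adjusted p = 0.776). No member of the 3 passed the test.

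Genes of DNA synthesis and strand joining also gave no call. Lig1, the ligase that joins Okazaki fragments, had 1276, 1320.0 and 1281 normalised counts in the Calr KO libraries, against 1225, 1228 and 1238 in the control libraries (log2 change 0.071, SE 0.048, limma adjusted p = 0.737). All Calr KO values were above all control values, with the nearest values at 1276 in Calr KO and 1238 in control libraries. Fen1, the flap endonuclease, had 1243, 1306 and 1358 normalised counts in the Calr KO libraries, against 1311, 1142 and 1208 in the control libraries (log2 change 0.10, SE 0.065, limma adjusted p = 0.738), and the groups overlapped. Pole, the leading-strand polymerase, had the widest interval of the 45 genes (95% interval -0.15 to 0.56), with 1227 to 1656 normalised counts in Calr KO and 951 to 1491 in control libraries. Pold1, the lagging-strand polymerase, and Prim1, a primase subunit, had log2 changes of 0.015 and -0.015. Uhrf1, which brings maintenance methylation to replicated DNA, had 3663, 3568 and 3987 normalised counts in the Calr KO libraries, against 3259, 4451 and 3291 in the control libraries (log2 change 0.042, SE 0.11, limma adjusted p = 0.948). The second control library held the highest value of the 6, and its group spread was larger than the difference.

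The enzymes of deoxynucleotide supply gave 0 calls of 3. Rrm2, the small subunit of ribonucleotide reductase, had 4019.6, 4097 and 4116 normalised counts in the Calr KO libraries, against 3892, 3839.9 and 3925 in the control libraries (log2 change 0.07, SE 0.033, limma adjusted p = 0.588). The groups did not overlap, and the interval ran from just below 0 (95% interval -0.0039 to 0.14). Rrm1, the large subunit, had a log2 change of -0.064. Tyms, thymidylate synthase, had 662, 609.8 and 645 normalised counts in the Calr KO libraries, against 613, 592 and 594 in the control libraries (log2 change 0.09, SE 0.065, limma adjusted p = 0.756), and its groups overlapped.

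Of the regulators of S-phase entry, none of 6 passed the test and the groups overlapped in all 6. The E cyclins, which activate CDK2, had the highest changes. Ccne1 had 346, 277 and 347 normalised counts in the Calr KO libraries, against 262, 282 and 304 in the control libraries (log2 change 0.19, SE 0.11, limma adjusted p = 0.701), and Ccne2 had 835, 597 and 716 normalised counts in the Calr KO libraries, against 589, 652 and 623 in the control libraries (log2 change 0.19, SE 0.11, limma adjusted p = 0.685). In both, Calr KO replicate 2 lay among the controls and the other 2 Calr KO libraries above them. Ccnd1, a D-type cyclin that activates CDK4, had a log2 change of 0.012 (95% interval -0.065 to 0.089). That of Cdk4 was 0.071, that of Cdk2 0.00036 (95% interval -0.11 to 0.11) and that of E2f1, an E2F factor, -0.021. Exons of another gene with a mean of 10 or more, on the opposite strand, overlap those of 11 members (Ccna2, Ccnd1, Ccne2, Cdc20, Cdc45, Cdk4, Fen1, Gins2, Lig1, Mcm7 and Rfc4). No source used here says whether the counting used strand.

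Mitotic genes were also called in 0 of 12, with changes from -0.088 for Bub1 to 0.12 for Cdk1. Top2a, the topoisomerase that untangles sister chromatids, had 14638, 14901 and 14644 normalised counts in the Calr KO libraries, against 14181, 14229 and 13845 in the control libraries (log2 change 0.064, SE 0.023, limma adjusted p = 0.472). The groups did not overlap and the difference was 1.05-fold. Mki67, the proliferation marker, had 10300.1, 10366 and 10554 normalised counts in the Calr KO libraries, against 10551, 11447 and 10628 in the control libraries (log2 change -0.063, SE 0.034, limma adjusted p = 0.658). It differed in the opposite direction from Top2a, and its groups overlapped through control replicate 1. On the log2 scale, Top2a had a 95% interval 0.012 to 0.12 and Mki67 a 95% interval -0.14 to 0.015.

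Cdk1, the kinase that drives entry into mitosis, had 2658, 2822 and 2947 normalised counts in the Calr KO libraries, against 2582, 2608 and 2582 in the control libraries (log2 change 0.12, SE 0.046, limma adjusted p = 0.509). The Calr KO libraries were more spread than the controls, and all lay above them. Its partner Ccnb1 had 3646, 3559.8 and 3578 normalised counts in the Calr KO libraries, against 3562, 3583 and 3385 in the control libraries (log2 change 0.035, SE 0.037, limma adjusted p = 0.841), with overlap. The cyclin genes Ccna2 and Ccnb2 had log2 changes of 0.025 and -0.018. Every Calr KO value of Ccna2 was above every control value, and the values of Ccnb2 overlapped. The mitotic kinases Plk1, Aurka and Aurkb had log2 changes of 0.0068, 0.026 and 0.0040, with limma adjusted p = 0.985, 0.926 and 0.99, SEs of 0.056, 0.053 and 0.049, and overlapping groups. Plk1 had 1718, 1543 and 1565 normalised counts in the Calr KO libraries, against 1594, 1653 and 1553 in the control libraries, and Aurka had 1745, 1582 and 1743 normalised counts in the Calr KO libraries, against 1681, 1634 and 1659 in the control libraries.

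In the spindle checkpoint, Cdc20, the activator of the anaphase-promoting complex, had 2820.1, 2846 and 2799 normalised counts in the Calr KO libraries, against 2643, 2675 and 2562 in the control libraries (log2 change 0.10, SE 0.038, limma adjusted p = 0.479). Its groups did not overlap. Bub1, a checkpoint kinase, had 2049.8, 1803 and 2044 normalised counts in the Calr KO libraries, against 2286, 2166 and 1833 in the control libraries (log2 change -0.088, SE 0.084, limma adjusted p = 0.811), with overlap. Bub1b, another checkpoint gene, had a log2 change of 0.052. Near-identical pseudogenes that averaged 10 normalised counts or more were found for Ccnb1, Mcm7, Pcna and Uhrf1, whose separate levels are uncertain to that extent.

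**Figure D4:**
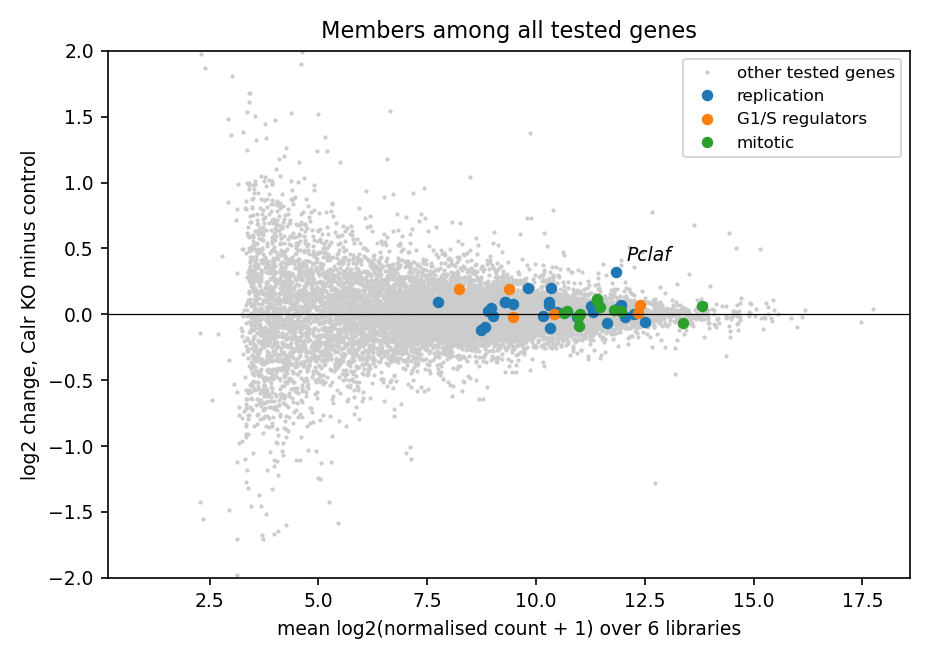
Log2 change, Calr KO minus control (y axis), against the mean log2 level (x axis) for all 13199 tested genes in grey and the 45 members in colour. Pclaf stands at 0.32, the other members lie between -0.12 and 0.20, and 13 genes beyond 2 in either direction are off the axis.

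Set against each other, replication and mitotic genes gave a difference whose values overlapped between Calr KO and control libraries. In each library the mean log2 level of the 27 replication genes was taken minus that of the 12 mitotic genes. It was -1.21, -1.20 and -1.23 in the Calr KO libraries and -1.25, -1.23 and -1.22 in the control libraries. The groups overlapped, and the means were -1.22 ± 0.013 in Calr KO libraries and -1.23 ± 0.017 in controls (SD, n = 3 each), a difference of 0.017, slightly above either SD. With a library left out the difference ran from 0.0077, without control replicate 1, to 0.024, without control replicate 3. Without Pclaf the difference was 0.0058. The mean of the replication genes alone was 10.42 in each Calr KO library and 10.38, 10.40 and 10.37 in the control libraries, a difference of 0.039. Without Pclaf it was 10.36 in each Calr KO library and 10.33, 10.35 and 10.32 in the control libraries, a difference of 0.028. The groups did not overlap with or without Pclaf. The mean of the mitotic genes overlapped between the groups, with a difference of 0.022. These means describe chosen genes and carry no p-value.

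Pclaf stood apart from most of the other 44 members in size. Its estimate of 0.32 was above the upper 95% limit of 38 of them, and its lower limit of 0.24 was above the upper limit of 35. The 6 whose upper limit reached its estimate were Pole, Gins1, Gins2, Cdc6, Ccne1 and Ccne2. Among all 13199 tested genes, the upper limit was below the Pclaf estimate in 8487 and below the Pclaf lower limit in 6927. The intervals of 25 of the 44 lay within 0.20 of 0 in both directions, beside 2910 of the 13199 tested genes. Such counts depend on the width of the intervals as well as on the changes, and the part of abundance in them was not tested. Errors differed between genes, with a median SE of 0.055 over the 45 and a range from 0.023 for Top2a to 0.16 for Pole. The coefficient of variation between wells was highest for Gins2 in Calr KO (21.3%) and for Pole in control cells (21.9%). It was lowest for Mcm5 in Calr KO (0.555%) and for Ccna2 in control cells (0.457%).

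Wider lists of the same processes also gave no call. With 0.28% of all tested genes called, 0 calls in lists of this length say little. Of 42 other replication genes, 0 passed the test, and the median log2 change was 0.029. The groups did not overlap in 8 that were higher (19%) and 0 that were lower, beside 7.57% and 7.28% of tested genes. For the other S-phase entry regulators these shares were 0% and 4.17%, and for the other mitotic genes 11.1% and 0%. At an unadjusted p under 0.05, 9 of the 42 other replication genes were higher, 21.4% beside 4.6% of tested genes, and 0 were lower. The smallest p-values were those of Timeless, a fork protection factor, and Pole4, an accessory subunit of the leading-strand polymerase. Timeless had 825, 859 and 819 normalised counts in the Calr KO libraries, against 687, 729.6 and 708 in the control libraries (log2 change 0.24, SE 0.06, limma adjusted p = 0.264). Pole4 had 593, 515 and 622 normalised counts in the Calr KO libraries, against 371, 457 and 511 in the control libraries (log2 change 0.38, SE 0.12, limma adjusted p = 0.414). In both, every Calr KO value was above every control value, and neither passed the adjustment.

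Of 27 other regulators of S-phase entry, 24 were measured, 0 passed and the median log2 change was -0.0054. At an unadjusted p under 0.05, 0 were higher and 3 lower, 12.5% of those measured beside 4.28% of tested genes. Cdkn2a and Cdkn2b, genes of CDK inhibitors, were listed at 0 in all 6 libraries. Myc, the growth-promoting transcription factor, had 15223, 15890.2 and 15342 normalised counts in the Calr KO libraries, against 16238, 17212 and 16469 in the control libraries (log2 change -0.10, SE 0.029, limma adjusted p = 0.326). Cdkn1a, the p53-induced CDK inhibitor p21, had 2466, 2260.3 and 2184 normalised counts in the Calr KO libraries, against 2654, 2555 and 2393 in the control libraries (log2 change -0.14, SE 0.058, limma adjusted p = 0.536). Every Calr KO value of Myc was below every control value, and the values of Cdkn1a overlapped. Of 45 other mitotic genes, 0 passed and the median log2 change was 0.022. At an unadjusted p under 0.05, 1 was higher, 2.22% of the list beside 4.6% of tested genes, and 0 were lower, beside 4.28%. Cenpf, a kinetochore protein, had the smallest p, with 6050.2, 6097 and 6013 normalised counts in the Calr KO libraries, against 5562, 5957 and 5145 in the control libraries (log2 change 0.13, SE 0.049, limma adjusted p = 0.505). Spc24, a subunit of the NDC80 kinetochore complex, was next, with 622, 639 and 679 normalised counts in the Calr KO libraries, against 635, 535 and 549 in the control libraries (log2 change 0.18, SE 0.083, limma adjusted p = 0.588). The Cenpf groups did not overlap and those of Spc24 did.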

How the data were processed

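Values are a signal, deposited as gene counts that the authors normalised with DESeq2, per the labels. Tools listed in the submitters' processing notes, with no role or order, are Salmon 0.14.1, STAR 2.6.1d and DESeq2 1.34.0, with the build mm10. Trizol RNA was made into libraries with a SMARTER mRNA-Seq kit, per the labels' protocols. Column sums were 14040692 to 14099985, with an estimated 13571214 to 14918665 reads. Of values of 100 to 1000 reads, 3.42% to 4.31% were whole within 0.02, so no count model was run.

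Genes with a mean of at least 10 were fitted with limma 3.58.1 (R 4.3.3) on log2(value + 1), with a variance prior that follows the mean and Benjamini-Hochberg adjustment over 13199 genes at a threshold of 0.05. Fold changes are on that scale, which understates changes of low genes. The 6 libraries were compared as 3 Calr KO against 3 control. The fit was also run on simulated data. Their noise followed the mean, as the variance prior of the fit assumes, so that run could not test the choice of prior. Members, gene lists and motifs were chosen with earlier results of these data known. Named were Pclaf, Pcna, every call, the 2 smallest p-values of each role and, in the other lists, the 2 smallest; any others were chosen after their values were seen. The planned search for members correlated with Pclaf is not given, since its libraries form 2 separate clusters of 3. Coordinates and lengths are from GENCODE M21 on GRCm38 and promoters from RefSeq on GRCm38.p6. Pseudogenes with at least 95% identity over 200 bases were found with BLAST 2.17.0. Same-numbered libraries did not deviate together (correlations -0.0555, -0.0108 and 0.00145).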

Additional observations from a re-analysis of the deposited data

How the results depend on the processing

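There were 16 alternative fits, all planned: 2 other pseudocounts, 3 other filters on low values, 3 other scalings, 1 variance prior, a replicate block, and 6 fits that each dropped a library. Pclaf kept its direction in all 16, at 0.30 to 0.34, and its call in 15, with an adjusted p of 0.0256 to 0.0386 when a library was left out. With 1 variance prior for all genes, 2 genes and 0 members passed, and the adjusted p of Pclaf was 0.281. Fits with a library left out called 20 to 34 genes in all, and 1 member each. The lowest counts came on dropping replicate 1 (20 genes) or 3 (21 genes) of the Calr KO group, or either of control replicates 2 and 3 (22 genes each). With the replicate block, 26 genes passed and Pclaf had a limma adjusted p of 0.0318, and the block changed no call among the members. Deviations of same-numbered libraries were nearly uncorrelated, which does not show whether the numbers pair the wells. The median change of the replication genes was 0.027 when scaled by upper quartile, a scaling that moved the median of all tested genes to -0.010, and 0.020 to 0.043 with a library left out. Plk1 was at -0.0038 when scaled by upper quartile and at -0.041 to 0.036 with a library left out, and Uhrf1 at -0.035 to 0.19. Of the uncalled members, only Pcna and those with the 2 smallest p-values of each role were followed across these fits. Among them, all but Plk1 and Uhrf1 kept their sign when a library was left out, but not their size. Ccne2 ran from 0.075 to 0.32, Ccne1 from 0.13 to 0.29, Cdc6 from 0.13 to 0.29, Rfc4 from -0.22 to -0.054 and Bub1 from -0.18 to -0.022. The signs of the remaining members, such as Aurkb and Mcm6, were not followed. The cause of these differences was not tested. In the 3 lists of other replication, S-phase entry and mitotic genes, 0 members passed in each of the 16. Depth enters only through the normalised values, since whole reads were not recovered.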
